A study of Homo sapiens with 4 samples.

Results

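Molecular chaperones of the HSP70, DNAJ, small heat shock protein, HSP90 and chaperonin families were examined in DLD-1 human colorectal cancer cells that stably overexpressed miR-21 (DLD-1-miR-21) and in DLD-1 cells carrying the empty pCMV-MIR vector (DLD-1-vector). Members were all probes of the Human OneArray Plus array whose only gene symbol in the platform annotation was an HSPA, HSPB, HSP90, DNAJA, DNAJB, DNAJC or CCT2 to CCT8 symbol, or HSPH1, HSPD1 or HSPE1. This gave 107 of the 31741 probes, which named 80 genes. Both lines came from the same parental cells, were selected with G418 and were pools of GFP-positive clones, so that selection and reporter were shared and miR-21 was the labelled difference. Each line was measured on 2 single-color arrays, and the sources do not say whether these came from separate cultures, so that p-values reflect only how far these arrays lay apart, which may be technical, and so small a number of arrays limits precision. HSPD1 and HSP90B1 had no member probe by this rule and were not analysed here. In 9 further probes a fitting symbol stood beside others, and these named no gene. DNAJC9-AS1, an antisense RNA, and HSPB11, now called IFT25 and part of intraflagellar transport, entered by their symbols.

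Chaperones bind unfolded segments of proteins and release them for folding, transport or degradation. HSP70 proteins do so in cycles of ATP binding and hydrolysis, in which J-domain (DNAJ) proteins deliver substrates and stimulate hydrolysis, and nucleotide exchange factors such as the HSP110 proteins release the ADP. HSP90 proteins act later on partly folded clients such as kinases and steroid receptors. The CCT chaperonin, a double ring of related subunits, encloses actin, tubulin and other proteins while they fold, small heat shock proteins hold unfolding proteins in solution without ATP, and HSPE1 is the lid of the mitochondrial chaperonin HSPD1. Many of these genes are induced together by heat shock factors when misfolded proteins accumulate, for example after inhibition of the proteasome.

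The plasmid encoded human miR-21, and its main mature form, hsa-miR-21-5p, is shown because it is the agent that set the lines apart. The sequence is that of RefSeq (GRCh38.p14, chr17:59841273-59841294, plus strand), with the seed, bases 2 to 8, in capitals.
hsa-miR-21-5p: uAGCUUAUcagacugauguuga
These arrays measure messenger RNA, and miR-21 itself was not analysed here. VMP1, the host gene of miR-21, had a normalized intensity of 7841 and 7162 in DLD-1-miR-21 cells, against 2815 and 2998 in DLD-1-vector cells, a log2 ratio of 1.35 (adjusted p = 0.00363 from limma). PDCD4, a known target of miR-21, had log2 ratios of -0.08 on its brighter probe and -0.65 on a dim one, and the second passed the test (adjusted p = 0.0225). The epithelial character of the lines was checked with 5 measured epithelial markers, which are not particular to colon or rectum. Of these, 4 lay above the median probe in DLD-1-miR-21 cells and 5 in DLD-1-vector cells. Their normalized intensities summed to 249008 and 255925 in DLD-1-miR-21 cells, against 252140.0 and 259711 in DLD-1-vector cells, most of it from KRT19. EPCAM and KRT8 were lower (log2 ratios -1.13 and -1.17, adjusted p = 0.00455 and 0.00725) and CLDN7 higher (0.73, adjusted p = 0.0144), and CDH1 and KRT19 did not pass. Of 4 fibroblast and 3 measured immune markers, only COL1A1 and CD14 lay above it, in both lines. The sums were 3751 and 5274 in DLD-1-miR-21 cells, against 3337 and 2336 in DLD-1-vector cells, for fibroblast markers, and 5545 and 6185 in DLD-1-miR-21 cells, against 2209 and 2264 in DLD-1-vector cells, for immune markers, mostly from CD14. CD14 was called higher (log2 ratio 1.43, adjusted p = 0.00339), as was the dim COL1A2 (0.73, adjusted p = 0.0356), and COL1A1 did not pass. The other markers COL3A1, DCN, PTPRC and CD3E were near background, with deposited intensities between 8 and 119, and did not pass. The part of these cell type markers in the results was not tested.

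Median deposited intensities differed between the lines, and were 255 and 339 in DLD-1-miR-21 and 571 on both DLD-1-vector arrays. The arrays were therefore quantile-normalized, and all intensities below are normalized unless called deposited. Each log2 ratio sets DLD-1-miR-21 against DLD-1-vector and was computed after 50 was added to each intensity, which understates changes of dim probes, and values after ± are standard errors. Tests were made with limma at a threshold of 0.05, with p-values adjusted by Benjamini and Hochberg over the 31741 probes. Since the arrays share a single distribution after this step, a change common to most transcripts cannot be seen. The median log2 ratio of all probes was 0.07 after quantile normalization and -0.63 without it. Less RNA per cell and fewer expressing cells cannot be told apart in such samples.

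In DLD-1-miR-21 cells, chaperone transcripts were more often lower than higher. Of the 107 member probes, 42 fell and 15 rose, while 50 did not pass. That was 39.3% lower, where 21.8% of all probes fell, and 14% higher, where 23% of all probes rose. Among probes brighter than the median probe (a normalized intensity of about 435) the background was 26.4% lower and 28.2% higher, and of the 69 members in that range 28 were lower and 11 higher. Of the 34 members whose mean did not exceed the median probe in either line, 12 fell and 3 rose. Probes this dim were not counted in this way over the whole array, so this count cannot be read as particular to chaperones. With a gene represented by its brightest probe, 27 of 80 member genes were lower and 11 higher, beside 22.4% and 24.6% of all genes. The median log2 ratio of the member probes was -0.19 (quartiles -0.95 and 0.32), against 0.07 for all probes (quartiles -0.47 and 0.59). A difference of at least 1 log2 unit was seen in 26 of the 42 lower members (61.9%) and 4 of the 15 higher ones (26.7%), where it was seen in 56% of all lower and 40.7% of all higher probes. All 57 called members and 89 of the 107 overall had arrays that did not overlap between the lines, which held for 76.2% of all probes. Separate arrays, mentioned for single genes below, therefore add nothing to a call. They were also a condition for naming probes by their ratio.

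The subfamilies differed in their counts. In the HSP90 family 3 of 3 probes fell, and in CCT 9 of 14 fell and 0 rose. In HSP70 6 of 16 probes were lower and 3 higher, in DNAJC 17 of 40 lower and 7 higher, in DNAJB 3 of 17 lower and 2 higher, in DNAJA 1 of 5 in each direction, and in the small heat shock proteins 2 of 9 lower and 1 higher. The 3 HSPE1 probes gave 1 in each direction. The medians of the log2 ratios ranged from -1.51 in HSP90 and -0.85 in CCT to 0.13 in the small heat shock proteins. Of all probes 21.8% were lower and 23% higher. The shares lower were 64.3% in CCT, 42.5% in DNAJC and 37.5% in HSP70. They were 22.2% in the small heat shock proteins, 20% in DNAJA and 17.6% in DNAJB, near or below that of all probes. These counts were not tested against each other.

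**Figure D1:**
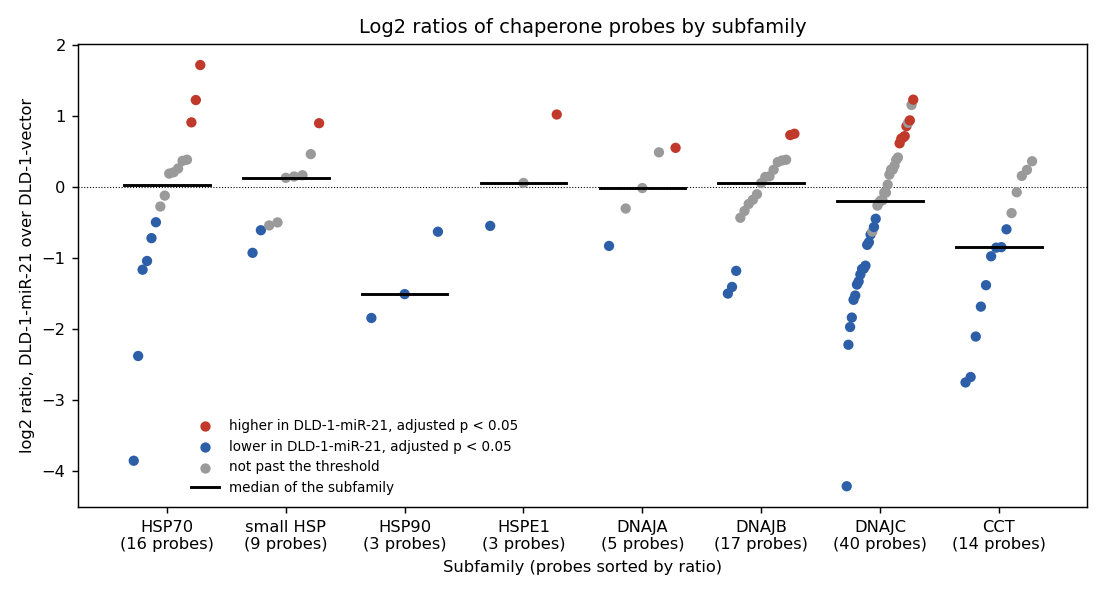
Each point is 1 of 107 probes, placed by its log2 ratio of DLD-1-miR-21 to DLD-1-vector (y axis) within its subfamily (x axis), with red for higher, blue for lower and gray for probes that did not pass the test, and with a bar at the median. Points of CCT and HSP90 lie mostly below 0, and the lowest points belong to DNAJC9 at -4.21 and HSPA8 at -3.85.

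The counts depended on 1 array and on the scaling. Without DLD-1-miR-21 replicate 2, which left 1 array of that line, no member and no other probe passed in limma. The median log2 ratio was then -0.22 for members and 0.07 for all probes. Without DLD-1-miR-21 replicate 1, 24 members were lower and 7 higher, which is 22.4% and 6.54%, beside 12.4% and 5.89% of all probes, so that the share of rises was then not below that of all probes. All 57 called members kept their sign when any 1 array was left out, which was bound to hold because their arrays did not overlap between the lines. Without normalization between arrays 70 members were lower and 0 higher (65.4% and 0%, beside 44.2% and 1.31% of all probes). There, all 42 lower members were called lower again, and of the 15 higher members 4 stayed above 0 and 14 above the median of all probes at -0.63. Directions of the higher members are therefore relative to the other transcripts. Among members given with few values below, the calls of CCT6B, DNAJC1, DNAJC25, HSPA4L, HSPB2 and the brighter DNAJC16 probe were lost without DLD-1-miR-21 replicate 1 (adjusted p between 0.0597 and 0.124) and without DLD-1-vector replicate 2 (between 0.0753 and 0.159).

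Both cytosolic HSP90 genes fell. HSP90AB1, the constitutive form (probe PH_hs_0031307), had 20577 and 19883 in DLD-1-miR-21 cells, against 67286 and 78490.5 in DLD-1-vector cells (log2 ratio -1.84 ± 0.14, adjusted p = 0.00262 from limma). The arrays of the lines were far apart, and DLD-1-vector cells were 3.59-fold higher on the scale of intensity plus 50. HSP90AA1, the stress-inducible form, had 52458 and 52186 in DLD-1-miR-21 cells, against 145918 and 151769.5 in DLD-1-vector cells on its brighter probe (log2 ratio -1.51 ± 0.12, adjusted p = 0.0027). Its second probe had 9704 and 9304 in DLD-1-miR-21 cells, against 13887 and 15614 in DLD-1-vector cells, with a smaller log2 ratio of -0.63 ± 0.13 (adjusted p = 0.0205). All 3 probes were among the brightest on the array, at percentiles 99.19, 97.79 and 93.17 of mean signal. The second HSP90AA1 probe lost its call without DLD-1-miR-21 replicate 1 (log2 ratio -0.66) or DLD-1-vector replicate 2 (-0.55). Without DLD-1-miR-21 replicate 2 the HSP90 calls were lost like all others, as given above. When all arrays were kept, other processing left 2 or 3 of the 3 probes lower.

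In the CCT chaperonin, 6 of 9 genes fell on their brightest probe, where 22.4% of all genes fell. CCT2 was lower on both probes. The brighter had 2364 and 2257 in DLD-1-miR-21 cells, against 9547 and 10668 in DLD-1-vector cells (log2 ratio -2.10 ± 0.13, adjusted p = 0.00222), and the other 578 and 414 in DLD-1-miR-21 cells, against 3062 and 3752 in DLD-1-vector cells (log2 ratio -2.67). The probes of CCT2 thus moved together, with no overlap of arrays. CCT7 had its brightest probe at 19829 and 18052 in DLD-1-miR-21 cells, against 30848 and 37591 in DLD-1-vector cells (log2 ratio -0.85 ± 0.16, adjusted p = 0.0155). A second CCT7 probe had 2251 and 2034 in DLD-1-miR-21 cells, against 15258 and 14114 in DLD-1-vector cells, which was the largest fall in this subfamily (log2 ratio -2.75 ± 0.13, adjusted p = 0.00196). The dimmest lay at background with deposited intensities from -4 to 30 in the lines together.

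CCT6A, the ubiquitous zeta subunit, had 2095 and 1675 in DLD-1-miR-21 cells, against 6044 and 6211 in DLD-1-vector cells (log2 ratio -1.68 ± 0.16, adjusted p = 0.00357). CCT5 had 19668 and 17888 in DLD-1-miR-21 cells, against 35408 and 38486 in DLD-1-vector cells on its bright probe (log2 ratio -0.97 ± 0.13, adjusted p = 0.00725), and a dim second probe gave -1.38. CCT3 had 17735 and 14724 in DLD-1-miR-21 cells, against 27735 and 30828 in DLD-1-vector cells (log2 ratio -0.85 ± 0.15, adjusted p = 0.0148). In these 3 genes every array of DLD-1-miR-21 cells lay below both arrays of DLD-1-vector cells, as in every member called lower. CCT6B, which in mouse is mainly found in testis, was dim and fell (log2 ratio -0.60 ± 0.13, adjusted p = 0.0246).

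CCT4 and CCT8 did not pass the test after quantile normalization. The brighter CCT4 probe had 121099 and 117727 in DLD-1-miR-21 cells, against 96424 and 89554 in DLD-1-vector cells (log2 ratio 0.36 ± 0.12, adjusted p = 0.0705), and the other had 39983 and 35119 in DLD-1-miR-21 cells, against 48827 and 47891 in DLD-1-vector cells (log2 ratio -0.37 ± 0.13, adjusted p = 0.0818). They pointed opposite ways and neither passed the test, although with 100 added the first was called higher (adjusted p = 0.0496), and with a variance trend and robust estimation both were called, each in its own direction (0.00741 and 0.0191). With cyclic loess the second was called lower (log2 ratio -0.51, adjusted p = 0.0325), and without normalization between arrays both CCT4 probes (-0.61 and -1.49, adjusted p = 0.0342 and 0.0027) and CCT8 (adjusted p = 0.00641) were called lower. CCT8 had 37780.5 and 32971 in DLD-1-miR-21 cells, against 36071 and 38306 in DLD-1-vector cells (log2 ratio -0.07 ± 0.14, adjusted p = 0.681), so that its lines overlapped. CCT8L2, a related gene outside the ring, was dim and did not pass either (0.16). TCP1, the subunit that completes the ring but lies outside the symbols used, had 8558 and 4976 in DLD-1-miR-21 cells, against 4996 and 5722 in DLD-1-vector cells (log2 ratio 0.29 ± 0.29, adjusted p = 0.464). In a complex with 1 copy of each subunit per ring, the measured log2 ratios thus ranged from -2.10 for CCT2 to 0.36 for CCT4 on brightest probes. The calls of CCT3 and of the brightest CCT7 probe were lost without DLD-1-miR-21 replicate 1 (adjusted p = 0.0538 and 0.0835) and without DLD-1-vector replicate 2 (0.0542 and 0.0527), and between 6 and 9 of the 14 CCT probes were lower when an array other than DLD-1-miR-21 replicate 2 was left out. With all arrays kept, other processing gave between 7 and 12 lower CCT probes. The 7 came without the dimmest 50% of probes, where fewer CCT probes were tested and 27.2% of all tested probes were lower. The 12 came without normalization between arrays, where 44.2% of all probes were lower.

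**Figure D2:**
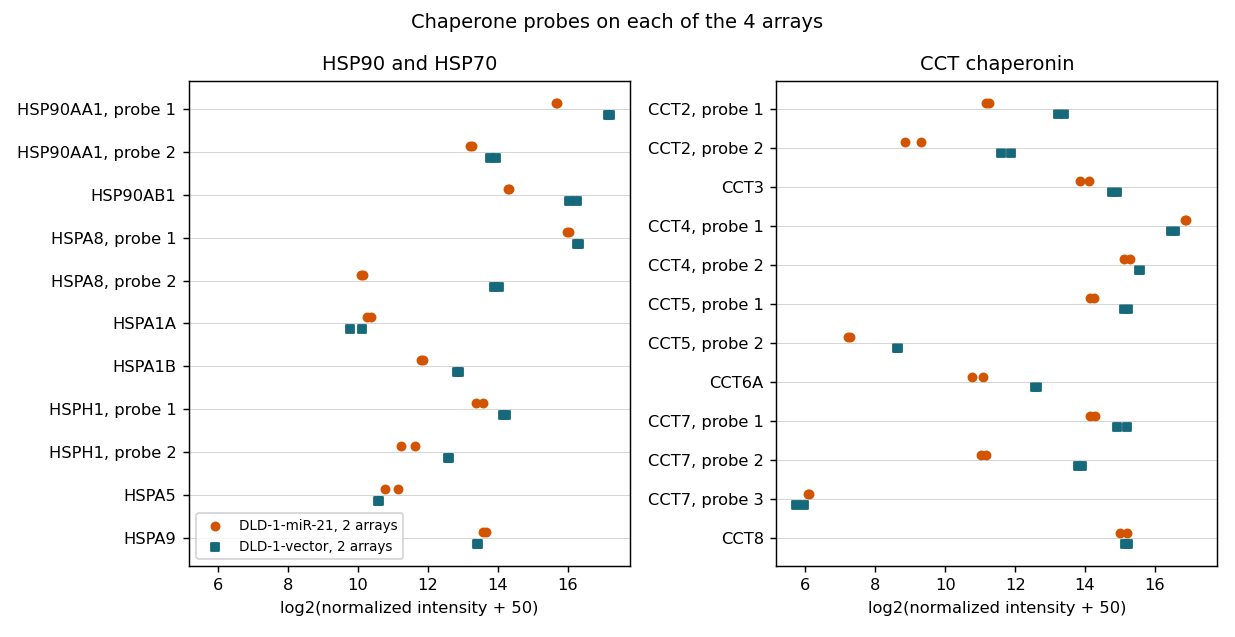
Points give log2(normalized intensity + 50) on each of the 2 DLD-1-miR-21 arrays (orange circles) and the 2 DLD-1-vector arrays (teal squares), with a row for each probe of HSP90 and HSP70 genes (left) and CCT subunits (right), numbered from the brightest probe of a gene. Circles lie left of squares without overlap for HSP90AA1, HSP90AB1, HSPH1, CCT2, CCT3, CCT5 and CCT6A, and the lines lie close together for CCT8 and for the first HSPA8 probe.

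HSPA8, the constitutive cytosolic HSP70, gave different answers on its probes. The brighter (PH_hs_0039202), at percentile 98.99 of signal, had 64666 and 67704 in DLD-1-miR-21 cells, against 78490.5 and 81707 in DLD-1-vector cells and did not pass (log2 ratio -0.28 ± 0.12, adjusted p = 0.125). The second (PH_hs_0040139) had 1083 and 1026 in DLD-1-miR-21 cells, against 15129 and 16651 in DLD-1-vector cells (log2 ratio -3.85 ± 0.13, adjusted p = 0.00196). With a variance trend and robust estimation the brighter probe was called lower as well (adjusted p = 0.0161). On deposited intensities the second probe had 587 and 707 in DLD-1-miR-21 cells, against 20317 and 24480.0 in DLD-1-vector cells. The gap between the probes, 3.57 log2 units, was the largest among the member genes with several probes. Which transcripts each probe reads was not analysed here, so the level of HSPA8 itself is uncertain.

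The heat-inducible pair HSPA1A and HSPA1B encode nearly identical proteins, so that values assigned to either are uncertain. The HSPA1B probe had 3628 and 3540.0 in DLD-1-miR-21 cells, against 7602 and 7259 in DLD-1-vector cells (log2 ratio -1.04 ± 0.12, adjusted p = 0.0052), with no overlap of the lines. The HSPA1A probe had 1175 and 1282 in DLD-1-miR-21 cells, against 1049.8 and 822 in DLD-1-vector cells and did not pass (log2 ratio 0.38 ± 0.17, adjusted p = 0.125). HSPA1L, their neighbor mainly found in testis, and HSPA2, a testis form, were below the median probe and did not pass (log2 ratios 0.26 and 0.19).

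Of the HSP110 proteins, which release ADP from HSP70, HSPH1 fell and HSPA4 rose. HSPH1 had 12234 and 10475 in DLD-1-miR-21 cells, against 18083 and 19291 in DLD-1-vector cells on its brighter probe (log2 ratio -0.72 ± 0.14, adjusted p = 0.0179) and 3148 and 2343 in DLD-1-miR-21 cells, against 6209 and 6086 in DLD-1-vector cells on the other (log2 ratio -1.16 ± 0.18, adjusted p = 0.0104). Its probes moved the same way, and the brighter did not pass without DLD-1-miR-21 replicate 1 (adjusted p = 0.0551) or DLD-1-vector replicate 2 (0.0677). HSPA4, one of the brightest members, had 119789.8 and 107030.5 in DLD-1-miR-21 cells, against 62030.5 and 58644 in DLD-1-vector cells (log2 ratio 0.91 ± 0.13, adjusted p = 0.00853). Its deposited intensities were 81287 and 71973 in DLD-1-miR-21 cells, against 80700.0 and 81475 in DLD-1-vector cells, so that its rise is a rise relative to the other transcripts, and without normalization its log2 ratio was -0.08. Its call was lost without DLD-1-miR-21 replicate 1 (0.0542). HSPA4L was near background (log2 ratio -0.50 ± 0.13, adjusted p = 0.0384).

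HSPA14, which works with DNAJC2 at the ribosome on newly made chains, had 694 and 510.5 in DLD-1-miR-21 cells, against 3029.8 and 3603 in DLD-1-vector cells (log2 ratio -2.38 ± 0.20, adjusted p = 0.003). DNAJC2 had 4922 and 3688 in DLD-1-miR-21 cells, against 6282 and 6959 in DLD-1-vector cells and narrowly missed the threshold (log2 ratio -0.63 ± 0.19, adjusted p = 0.0518). Both partners were thus at lower values on both DLD-1-miR-21 arrays. The largest rise among all members was that of HSPA13, a microsomal HSP70, with 3666 and 3278 in DLD-1-miR-21 cells, against 1014 and 1029.5 in DLD-1-vector cells (log2 ratio 1.71 ± 0.13, adjusted p = 0.00259). HSPA12A, a distant relative, also rose, with 842 and 962 in DLD-1-miR-21 cells, against 334 and 381 in DLD-1-vector cells (log2 ratio 1.22 ± 0.14, adjusted p = 0.00543), and its relative HSPA12B was dim and did not pass (-0.12). Without normalization between arrays HSPA13 and HSPA12A stayed above 0 at 0.48 and 0.25 but did not pass (adjusted p = 0.0695 and 0.442).

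HSPA5 and HSPA9, the main HSP70 proteins of the endoplasmic reticulum and of mitochondria, did not pass the test. HSPA5 (BiP) had 2198 and 1694 in DLD-1-miR-21 cells, against 1458 and 1513 in DLD-1-vector cells (log2 ratio 0.37 ± 0.17, adjusted p = 0.143), and HSPA9 had 13001 and 12194 in DLD-1-miR-21 cells, against 10742 and 11073 in DLD-1-vector cells (log2 ratio 0.21 ± 0.12, adjusted p = 0.223). Both signs turned negative under median centring (-0.0024 and -0.18) and without normalization (-0.85 and -1.03).

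Probes outside the naming rule are given below so that every member is accounted for. J-domain proteins formed the largest group, with 62 probes of 46 symbols, of which 21 were lower and 10 higher, while 31 did not pass. That was 33.9% lower and 16.1% higher, beside 21.8% and 23% of all probes. DNAJC9, a histone chaperone of this family (PH_hs_0030029), had the largest fall of all members. Its deposited intensities were 229 and 311 in DLD-1-miR-21 cells, against 10211 and 12631 in DLD-1-vector cells. After normalization it had 389 and 388 in DLD-1-miR-21 cells, against 7565 and 8579.8 in DLD-1-vector cells (log2 ratio -4.21 ± 0.13, adjusted p = 0.00196), so that the DLD-1-miR-21 arrays lay below the median probe and DLD-1-vector cells were 18.5-fold higher on the scale of intensity plus 50. DNAJC9-AS1, the antisense RNA of the same locus, had 1598 and 2528 in DLD-1-miR-21 cells, against 1591 and 692 in DLD-1-vector cells and did not pass (log2 ratio 0.90 ± 0.45, adjusted p = 0.172). DNAJC17, a nuclear protein linked to splicing, had 836 and 651 in DLD-1-miR-21 cells, against 3681 and 3559 in DLD-1-vector cells (log2 ratio -2.22 ± 0.16, adjusted p = 0.00257). DNAJC4 was lower on both probes, at -0.78 on the brighter and -1.84 on the other, and the call of the brighter was lost without DLD-1-miR-21 replicate 1 (log2 ratio -0.68). DNAJC22 had 226 and 217 in DLD-1-miR-21 cells, against 717 and 819 in DLD-1-vector cells (log2 ratio -1.59 ± 0.13, adjusted p = 0.003). In each of these falling genes the lines were separated on every array, as in every called member.

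In the cytosol, DNAJA1, a main partner of HSPA8, had 3486 and 2576 in DLD-1-miR-21 cells, against 5759 and 4996 in DLD-1-vector cells (log2 ratio -0.83 ± 0.20, adjusted p = 0.0292). Its call was among the least firm, as it was lost without DLD-1-miR-21 replicate 1 (adjusted p = 0.0576), DLD-1-vector replicate 1 (0.0797) or DLD-1-vector replicate 2 (0.0539), and with a floor of 32 (0.058). DNAJB1, the inducible HSP40, had 16766 and 15635 in DLD-1-miR-21 cells, against 13976 and 15222 in DLD-1-vector cells and did not pass (log2 ratio 0.15 ± 0.13, adjusted p = 0.381), with a log2 ratio of -0.22 under median centring. DNAJA2 gave -0.30 on its brighter probe, which did not pass, and 0.55 ± 0.14 (adjusted p = 0.0353) on the other. Leaving out any of 3 arrays, DLD-1-miR-21 replicate 1 or either DLD-1-vector array, cost this rise its call (adjusted p = 0.117, 0.0728 and 0.127), as did median centring (0.644) and cyclic loess (0.0517). DNAJB6, which holds back aggregation of polyglutamine proteins, had 3 probes that disagreed. The brightest did not pass (-0.34), the second rose with 7329 and 6414 in DLD-1-miR-21 cells, against 4219.5 and 4015 in DLD-1-vector cells (log2 ratio 0.73 ± 0.13, adjusted p = 0.0153), and the remaining, dim probe fell with 136 and 139.5 in DLD-1-miR-21 cells, against 399 and 354 in DLD-1-vector cells (log2 ratio -1.18 ± 0.13, adjusted p = 0.00463). The rise was lost without DLD-1-miR-21 replicate 1 (0.0687) or DLD-1-vector replicate 2 (0.0596), and under median centring (0.242), where the brightest probe was lower (-0.73, adjusted p = 0.0195), as it was with a variance trend and robust estimation (-0.34, adjusted p = 0.0396). DNAJB2, DNAJB4, DNAJB5, DNAJC5 and DNAJC7 did not pass, with log2 ratios from -0.43 to 0.37.

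In the endoplasmic reticulum, J-domain partners of HSPA5 moved in both directions. DNAJB11 (ERdj3), a secreted and lumenal cochaperone, had 2396 and 1795 in DLD-1-miR-21 cells, against 5402 and 6564 in DLD-1-vector cells (log2 ratio -1.50 ± 0.20, adjusted p = 0.00732). DNAJC10 (ERdj5), a disulfide reductase, was lower on both probes, with 712 and 725 in DLD-1-miR-21 cells, against 1894 and 1988 in DLD-1-vector cells on the brighter (log2 ratio -1.37 ± 0.12, adjusted p = 0.00314) and a log2 ratio of -1.53 on the other. DNAJB9 (ERdj4), which is induced by the unfolded protein response, had 1188 and 1250.2 in DLD-1-miR-21 cells, against 687 and 724 in DLD-1-vector cells (log2 ratio 0.75 ± 0.12, adjusted p = 0.0111). It thus rose where DNAJB11 and DNAJC10 fell, but its call was lost without DLD-1-miR-21 replicate 1 (adjusted p = 0.056) and under median centring (0.0687). DNAJC1, a membrane protein there, was slightly lower (log2 ratio -0.45 ± 0.12, adjusted p = 0.0421). DNAJC3 (P58IPK) did not pass on its bright probe (-0.19) and fell on a dim one (-1.23), and the same held for DNAJB14 (0.05 and -1.41). DNAJB12 did not pass on either probe (-0.24 and 0.14).

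Mitochondrial members also went both ways. DNAJC15, of the protein import motor, had 4503 and 3584 in DLD-1-miR-21 cells, against 7439.8 and 10885 in DLD-1-vector cells on its bright probe (log2 ratio -1.15 ± 0.24, adjusted p = 0.0213), and its 3 dimmer probes gave -0.19, -1.33 and 0.03, of which the value of -1.33 passed. The calls of the bright probe and of that at -1.33 were lost without DLD-1-miR-21 replicate 1 (log2 ratios -1.32 and -1.40). With a floor of 32 the bright probe did not pass either (adjusted p = 0.0509 from limma). DNAJC19, of the same motor, fell at a dim probe (log2 ratio -1.15 ± 0.19, adjusted p = 0.0119). DNAJC30 rose on its brighter probe, with 6224 and 6552 in DLD-1-miR-21 cells, against 4440.0 and 3377 in DLD-1-vector cells (log2 ratio 0.71 ± 0.18, adjusted p = 0.0321), and not on the other (0.24). That rise was lost without DLD-1-miR-21 replicate 1 (adjusted p = 0.146) or DLD-1-vector replicate 2 (0.0955), under median centring (0.237), with cyclic loess (0.0547) and with a floor of 32 (0.0571). DNAJC11, which binds the cristae-organizing complex, did not pass on its brightest probe (-0.26) and rose on the other, with 9311 and 9638 in DLD-1-miR-21 cells, against 5316 and 5117 in DLD-1-vector cells (log2 ratio 0.85 ± 0.12, adjusted p = 0.00775), which did not hold under median centring (adjusted p = 0.0827). DNAJA3 did not pass (-0.02). HSPE1, the co-chaperonin, was lower on its brightest probe, not called on the next and higher on the dimmest. These had 192293 and 182329.5 in DLD-1-miR-21 cells, against 272578 and 274809.5 in DLD-1-vector cells (log2 ratio -0.55 ± 0.12, adjusted p = 0.0229), a log2 ratio of 0.06, and 13590.0 and 11703 in DLD-1-miR-21 cells, against 6071 and 6329.5 in DLD-1-vector cells (log2 ratio 1.02 ± 0.14, adjusted p = 0.00736). HSPE1 therefore has no settled direction here, and the fall of the brightest probe was lost without DLD-1-miR-21 replicate 1 (0.0696), DLD-1-vector replicate 1 (0.0717) or DLD-1-vector replicate 2 (0.0874), and under median centring neither that fall (0.279) nor the rise (0.0543) passed.

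Among the remaining DNAJC genes, DNAJC24, an enzyme cofactor of diphthamide synthesis on elongation factor 2, had the largest rise, with 15452 and 16004 in DLD-1-miR-21 cells, against 6902 and 6478 in DLD-1-vector cells (log2 ratio 1.23 ± 0.12, adjusted p = 0.00392). DNAJC14 and DNAJC25 also rose (log2 ratios 0.68 and 0.61), as did DNAJC6, the clathrin-uncoating auxilin, with 528 and 536 in DLD-1-miR-21 cells, against 282 and 339 in DLD-1-vector cells (log2 ratio 0.69 ± 0.14, adjusted p = 0.0187). DNAJC14 lost its call without DLD-1-miR-21 replicate 1 or DLD-1-vector replicate 1, and under median centring (adjusted p = 0.237 from limma). The call of DNAJC6 was lost without DLD-1-miR-21 replicate 1 (adjusted p = 0.0964) or DLD-1-vector replicate 1 (0.0622). DNAJC21, a factor of large ribosomal subunit assembly, had dim probes at -1.97, which passed, and 0.38, which did not. Both probes of DNAJC28 were near background and opposed each other (0.94 and -0.67, adjusted p = 0.00622 and 0.0143), and the fall was lost without DLD-1-miR-21 replicate 1 (0.0675) or DLD-1-vector replicate 1 (0.0523) and under median centring (0.49). DNAJC16 was lower on both probes (-0.56 and -0.81) and DNAJC13, an endosomal protein, on a dim one (-1.11). The calls of the DNAJC16 probe at -0.81 and of DNAJC13 were lost without DLD-1-miR-21 replicate 1. Under median centring that DNAJC16 probe did not pass either (adjusted p = 0.0848 from limma). DNAJC8, a bright splicing-associated member, DNAJC18 and DNAJC27 did not pass, with log2 ratios of 0.24, 1.15 and 0.41. The remaining DNAJ members, DNAJA4, DNAJB3, DNAJB7, DNAJB8, DNAJB13, DNAJC5B, DNAJC5G and DNAJC12, did not pass either and ranged from -0.22 to 0.49.

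Small heat shock proteins were represented mainly by HSPB1 (HSP27), whose probes were among the brightest on the array. The brighter had 97247 and 147787 in DLD-1-miR-21 cells, against 164116 and 174869 in DLD-1-vector cells and did not pass (log2 ratio -0.50 ± 0.23, adjusted p = 0.15). The other had 93368 and 93756 in DLD-1-miR-21 cells, against 171740.0 and 184226 in DLD-1-vector cells (log2 ratio -0.93 ± 0.12, adjusted p = 0.00681). Both probes were lower on every DLD-1-miR-21 array, but the arrays of that line differed on the brighter probe, and the call of the other was lost without DLD-1-miR-21 replicate 1 (adjusted p = 0.0512). HSPB11 (IFT25) was as bright and did not pass, with 122123 and 111416 in DLD-1-miR-21 cells, against 102459 and 111127 in DLD-1-vector cells (log2 ratio 0.13 ± 0.13, adjusted p = 0.459). The muscle forms HSPB2, HSPB3, HSPB6 and HSPB7, and HSPB8 and HSPB9, lay on average below the median probe. Of these HSPB2 fell (-0.61) and HSPB9 rose (0.90), HSPB2 with 42 and 46 in DLD-1-miR-21 cells, against 90.2 and 96 in DLD-1-vector cells and HSPB9 with 167 and 163 in DLD-1-miR-21 cells, against 64 and 66 in DLD-1-vector cells.

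Agreement between probes could be checked in 22 genes. In 7 of them (CCT2, CCT5, DNAJC4, DNAJC10, DNAJC16, HSP90AA1 and HSPH1) every probe fell, and in 0 every probe rose. In 7 genes some probes fell and the rest did not pass, in 3 some rose and the rest did not pass, in 2 none passed, and in 3 (DNAJB6, DNAJC28 and HSPE1) probes passed in both directions. The median spread between the highest and lowest probe of a gene was 0.96 log2 units, and it was over 1 in 11 genes. The cause of this spread was not tested. Genes with several probes were not counted in this way over the whole array, so these counts cannot be read as particular to chaperones. HSPA8, HSPE1, HSP90AA1, HSP90AB1 and CCT6A have near-identical processed or duplicated pseudogenes, so that signals assigned to them are uncertain in this respect as well.

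**Figure D3:**
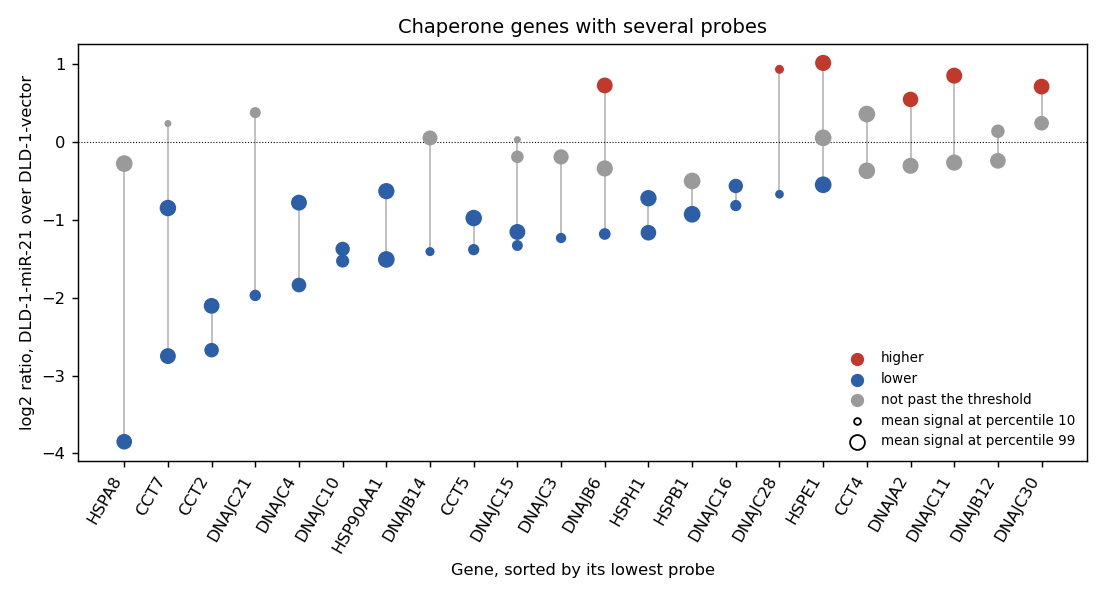
Each column is 1 of the 22 member genes with several probes, each point a probe at its log2 ratio of DLD-1-miR-21 to DLD-1-vector (y axis), with red for higher, blue for lower and gray for not past the threshold, and with point area growing with the percentile of mean signal. The widest gaps are those of HSPA8 (3.57) and CCT7 (2.99), and the only genes with red and blue points are DNAJB6, DNAJC28 and HSPE1.

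Promoters were searched for the heat shock element, the site of heat shock factors, because heat shock factors are known to induce many chaperone genes. The motif searched was GAANNTTCNNGAA and its reverse complement TTCNNGAANNTTC, so that both strands were covered. Promoters of 71 members were matched in RefSeq (GRCh38.p14), each from 250 bases before the start of the gene to 50 after it. This strict form of 3 perfect units stood in 3 of these 71 (4.23%) and in 133 of 27305 promoters overall (0.487%). The matches, with 10 bases on either side and the motif in capitals, are shown for the members that held one.
HSPA8, site 1, chr11:123062344-123062376, minus strand: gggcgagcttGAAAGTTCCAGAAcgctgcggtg
HSPA8, site 2, chr11:123062169-123062201, minus strand: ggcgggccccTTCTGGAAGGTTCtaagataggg
DNAJA1, chr9:33025266-33025298, plus strand: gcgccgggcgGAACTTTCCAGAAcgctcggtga
DNAJB6, chr7:157336863-157336895, plus strand: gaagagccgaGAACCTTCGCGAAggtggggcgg
Counted from the annotated start as 0, the HSPA8 matches spanned -230 to -218 and -55 to -43, that of DNAJB6 -131 to -119, and that of DNAJA1 lay just after the start, from 3 to 15. On brightest probes DNAJA1 fell (-0.83) while HSPA8 (-0.28) and DNAJB6 (-0.34) did not pass. The other HSPA8 probe fell (-3.85), and of the other DNAJB6 probes 1 fell (-1.18) and 1 rose (0.73). With a variance trend and robust estimation both brightest probes were called lower. Whether the members with a match share a direction therefore depends on the probe and cannot be read here. A match is a description of letters and not of binding.

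Partners of these chaperones were counted from a list of 49 genes outside the families, of which 45 had a probe. On brightest probes 24 were lower and 5 higher, and 16 did not pass, with a median log2 ratio of -0.49, against 0.09 for the brightest probes of all genes and the shares of 22.4% and 24.6% given above. Among nucleotide exchange factors 7 of 11 fell and 1 rose, and among HSP90 and HSP70 co-chaperones 9 of 13 fell and 0 rose. STUB1 (CHIP), the ubiquitin ligase that marks chaperone clients, had 709 and 542 in DLD-1-miR-21 cells, against 5060.0 and 5074 in DLD-1-vector cells (log2 ratio -2.93 ± 0.17, adjusted p = 0.00204). SIL1, the exchange factor of HSPA5, had 253 and 268 in DLD-1-miR-21 cells, against 1379.5 and 1480.5 in DLD-1-vector cells (log2 ratio -2.25 ± 0.12, adjusted p = 0.002). PDCL, a phosducin-like partner of CCT, had 76 and 84 in DLD-1-miR-21 cells, against 379.8 and 484 in DLD-1-vector cells (log2 ratio -1.88 ± 0.16, adjusted p = 0.00303). CLPX, a mitochondrial unfoldase, had 672 and 367 in DLD-1-miR-21 cells, against 1838 and 1728 in DLD-1-vector cells (log2 ratio -1.74 ± 0.29, adjusted p = 0.0121). These partners were lower on all arrays of DLD-1-miR-21 cells, where 76.2% of all probes had arrays that did not overlap.

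The rises in this list were smaller. PFDN5, a prefoldin subunit that passes substrates to CCT, had 156763 and 164116 in DLD-1-miR-21 cells, against 77608 and 80228 in DLD-1-vector cells (log2 ratio 1.02 ± 0.12, adjusted p = 0.00542). SERPINH1 (HSP47), the collagen chaperone, CLPB, a mitochondrial disaggregase, and PFDN6 had log2 ratios of 0.71, 0.55 and 0.46. Of 8 measured chaperonin and prefoldin genes 3 fell and 2 rose. HSF1, the main heat shock factor, and TRAP1, the mitochondrial HSP90, are given as list members named after their values were seen, as is TCP1 above. HSF1 had 3775 and 2689 in DLD-1-miR-21 cells, against 7055 and 7689 in DLD-1-vector cells (log2 ratio -1.20 ± 0.20, adjusted p = 0.0125), and TRAP1 had 7268 and 6567 in DLD-1-miR-21 cells, against 23340.0 and 21949.8 in DLD-1-vector cells (log2 ratio -1.70 ± 0.13, adjusted p = 0.00263), both without overlap of the lines. Of the listed heat shock factors HSF2 and HSF4 did not pass (log2 ratios -0.35 and 0.03), and HSBP1, a heat shock factor binding protein, was lower (-0.43, adjusted p = 0.0479). Without DLD-1-miR-21 replicate 2, no gene of the list passed in limma. Leaving out any other single array also left fewer genes of the list called lower than with all arrays. Fewer of all probes were called lower in those settings too.

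**Figure D4:**
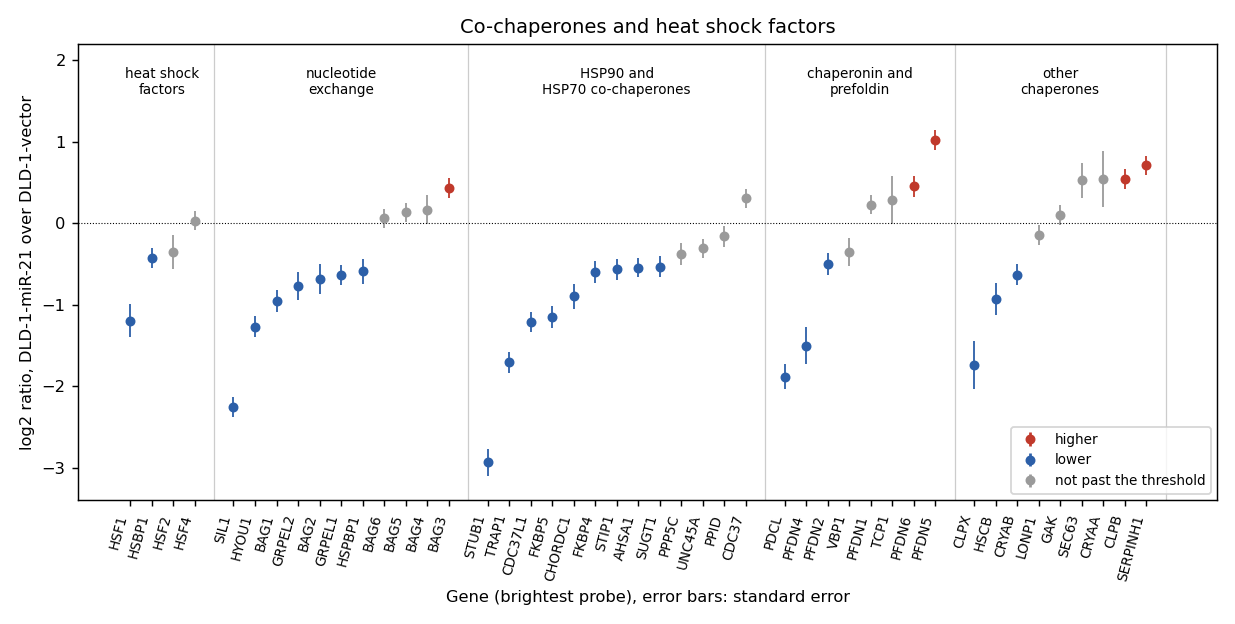
Plotted is the log2 ratio, DLD-1-miR-21 to DLD-1-vector, with its standard error (y axis) for the brightest probe of 45 co-chaperone and heat shock factor genes, grouped by role, with red for higher, blue for lower and gray for not past the threshold. Blue points fill most of the nucleotide exchange and HSP90 and HSP70 groups, down to STUB1 at -2.93, and the 5 red points reach 1.02 at PFDN5.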

How the data were processed

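Transcripts were measured with Cy5-labelled RNA on Human OneArray Plus arrays of a single color, 2 for DLD-1-miR-21 and 2 for DLD-1-vector cells. The authors deposited 1 background-subtracted intensity per probe on a linear scale. Which scanner and feature extraction were used is not given in the sources. Medians differed between lines, so the arrays were quantile-normalized. After 50 was added, log2 values were tested with limma 3.58.1 in R 4.3.3 (lmFit and eBayes) with Benjamini-Hochberg adjustment over all probes. The procedure was tested on simulated data. Of 31741 probes, 24740 had 1 symbol in the platform annotation, 977 several and 6024 none, and probes with several were left out. Members and lists were chosen with earlier results of these data known. Named by rule were, per subfamily, up to 4 called probes with the highest and lowest ratios, arrays apart and a mean above the median probe in the higher line, the main stress-related genes, all CCT subunits, genes with opposing probes, and up to 4 co-chaperones in each direction. Alternatives were other normalizations, added constants, a floor, filters on dim probes, a variance trend, other probe choices per gene, a replicate block and leaving out each array.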

Additional observations from a re-analysis of the deposited data

How the results depend on the processing

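Without normalization between arrays 0 member probes were higher and 70 lower (median log2 ratio -1.07), with 0 and 49 genes, and 0 and 41 co-chaperones. Among probes named by rule, log2 ratios there turned negative for DNAJB9 (-0.36), DNAJC6 (-0.17), HSPA4 (-0.084), DNAJC11 (-0.38), HSPA5 (-0.85) and HSPE1 (-0.22 and -0.70). The same held for CCT4 (-0.61), HSPA9 (-1.03), DNAJB1 (-1.07), DNAJC24 (-0.010), HSPA1A (-0.75) and CCT7 (-0.029, dimmest probe). It also held for DNAJA2 (-0.73), DNAJB6 (-0.53) and DNAJC30 (-0.54). Outside that rule, DNAJC14 (-0.55) and DNAJC25 (-0.13), called higher above, turned negative as well. Median centring gave 9 higher member probes, a median of -0.22 and 1 higher co-chaperone. Among probes named by rule it turned HSPA5 (-0.0024), HSPA9 (-0.18) and DNAJB1 (-0.22). It also turned HSPA4L, called lower above, to 0.017. HSPA4L, HSPB2 (-0.10) and CCT6B (-0.34) then did not pass (adjusted p = 0.952, 0.673 and 0.182 from limma). Cyclic loess gave a median of -0.26 and 3 higher co-chaperones, and adding 26 gave -0.20 and 3. The median was -0.17 with 100 added, -0.21 with a floor of 32 and -0.26 without the dimmest 50% of probes. With 1 array left out, member probes ranged from 0 to 16 higher and 0 to 36 lower, genes from 0 to 13 and 0 to 22, co-chaperones from 0 to 3 and 0 to 15, and the median from -0.25 to -0.20, with every 0 from the setting without DLD-1-miR-21 replicate 2. Fewer of all probes were called in each of these settings, in either direction. CCT8 ranged from -0.17 to 0.023, above 0 without DLD-1-miR-21 replicate 2. Same-numbered arrays share only a number, as their deviations correlated at -0.069 over all probes. A replicate block gave 12 higher and 35 lower member probes and 2 higher and 15 lower co-chaperones, and the second HSP90AA1 probe (adjusted p = 0.0525), the brightest HSPE1 probe (0.0645), DNAJA2 (0.0645), DNAJC30 (0.054), CCT6B (0.0562), DNAJC1 (0.0977), the brighter DNAJC16 probe (0.0717), DNAJC25 (0.0568), HSPA4L (0.0825) and HSPB2 (0.0503) did not pass, while no other member lost its call. The causes of these shifts were not tested. Counts of member genes with a gene's probes averaged (11 higher, 31 lower) or the brightest probe in DLD-1-vector (10 higher, 29 lower) stayed near 11 and 27. Probes near background, such as those of DNAJC28 and HSPA4L, have little signal to support a ratio.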
